A study of Mus musculus with 19 samples.

Results

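The genes described here encode the subunits of the oxidative phosphorylation complexes in mouse liver. They were chosen by a rule on symbols, as every protein-coding row whose name begins with Nduf a, b, c, s or v and a number, with Sdh a to d, Uqcr, Cox 4 to 8 or Atp5, or with the mitochondrial prefix mt-. This gave 98 of the 31053 rows of the count table, which carry 97 symbols because Atp5o is listed under 2 identifiers. Of these rows, 13 lie in the mitochondrial genome and 85 in the nuclear genome. Nuclear rows numbered 37 for complex I, 4 for complex II, 8 for complex III, 18 for complex IV and 18 for complex V, and mitochondrial rows numbered 7, 0, 1, 3 and 2. Rows were grouped by name, so that Ndufa4 and Ndufa4l2 are counted under complex I. The rule also took Atp5s, a coupling-factor-like protein that is no stable subunit, and Cox7a2l and Ndufa4, which associate with complex IV or its supercomplexes. It left out genes that carry other names, among them the complex I acyl carrier protein, cytochrome c1 of complex III and the inhibitor of the ATP synthase.

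Liver RNA came from male C57BL/6 mice in 3 groups, labelled as biological replicates. The age given for the mice, 6 to 8 weeks, is read here as that on entry, before the weeks of treatment. Vehicle mice (5 libraries) received PBS, and whether they were also given a vector is not stated in the labels. AAV-GFP mice (7 libraries) received thioacetamide (TAA), a hepatotoxin that scars the liver, for 12 weeks at increasing doses, with an AAV8 vector for eGFP given at week 10 and death 4 weeks later. AAV-miR-34b/c mice (7 libraries) followed the same schedule with AAV8 vectors for miR-34b and miR-34c. The vectors carried the TBG promoter, which is active in hepatocytes. A comparison with vehicle thus covers TAA and, if the vehicle mice had none, the vector as well, and these cannot be told apart. Only the last contrast, AAV-miR-34b/c against AAV-GFP, holds TAA and AAV8 constant.

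Oxidative phosphorylation passes electrons from NADH through complex I, or from succinate through complex II, to ubiquinone, then through complex III and cytochrome c to complex IV, where oxygen is reduced. Complexes I, III and IV pump protons across the inner mitochondrial membrane and complex V, the ATP synthase, uses the gradient to make ATP. All complexes but complex II are built from proteins of both genomes, and hepatocytes, which are rich in mitochondria, depend on them for gluconeogenesis, urea synthesis and detoxification.

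Libraries were made from the 3′ end of polyadenylated RNA and held 2214073 to 5208405 counts. Between 1.07% and 6.17% of a library's counts fell on Gm42418, a row that overlaps ribosomal RNA sequence. This share differed between groups, at 4.72% ± 0.778 (SD, n = 5) in vehicle, 3.97% ± 1.28 (SD, n = 7) in AAV-GFP and 2.26% ± 1.07 (SD, n = 7) in AAV-miR-34b/c, where libraries 3 to 7 were at 1.07% to 2.19%. Scaling without Gm42418 gave the nuclear members medians of -0.24, -0.27 and -0.06 in AAV-GFP against vehicle, AAV-miR-34b/c against vehicle and AAV-miR-34b/c against AAV-GFP. Libraries of a group were not equally far apart. In 6 pairs (AAV-miR-34b/c 3 and 4, 5 and 7, 1 and 2, AAV-GFP 1 and 2, vehicle 1 and 4, vehicle 3 and 5) the biological coefficient of variation was 0.0814 to 0.177, under the 0.2 used to call a pair close, so that the members' fold changes, calls and medians were also computed with each pair summed to 1 sample. The pathway and marker lists, the ratios between single mitochondrial mRNAs and the permutation tests were not. AAV-miR-34b/c 1 and 2 stood apart in the neutrophil markers, with a summed level of 1912 and 1904 CPM (counts scaled to a common library size) against 63.5 to 424 in the other AAV-miR-34b/c libraries and 14.8 to 80.5 in the vehicle and AAV-GFP libraries. Of the 6 neutrophil markers, 3 were tested in AAV-miR-34b/c against vehicle and all 3 (Retnlg, S100a8 and S100a9) were called higher. They were also called higher in AAV-miR-34b/c against AAV-GFP, with a median log2 fold change of 4.31. Hepatocyte markers were abundant in every library (summed level 50786 to 85182 CPM), as the tissue label requires.

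The mitochondrial mRNAs are shown first because the sequence of several limits what was counted. Nuclear copies of mitochondrial DNA lie on chromosome 1 of GRCm38 (chr1:24611535-24616197, minus strand) and on chromosome 2. For each mitochondrial mRNA, the share of its 100-base windows that occur without a mismatch in another annotated transcript was computed. The mRNA of mt-Co2, a core subunit of complex IV (chrM:7013-7696), shared 99.5% of its windows with the pseudogene Gm28661, which matched its bases 1 to 681 with 0 mismatches. The mRNA of mt-Cytb, the only mitochondrial subunit of complex III (chrM:14145-15288), shared none. The mRNA of mt-Nd4 (chrM:10167-11544) matched Gm28439 over bases 1 to 876 and none of the windows of its last 300 bases, from which 3′ reads come, were shared. The last 60 copied bases of mt-Co2, the last 60 bases of mt-Cytb, and the 60 bases of mt-Nd4 across the end of its copy are given 5′ to 3′, with the bases beyond the nuclear copy of mt-Nd4 in capitals.
mt-Co2 bases 622 to 681, and Gm28661: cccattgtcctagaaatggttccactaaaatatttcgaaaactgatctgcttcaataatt
mt-Cytb bases 1085 to 1144: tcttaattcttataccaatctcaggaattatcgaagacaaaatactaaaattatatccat
mt-Nd4 bases 847 to 906: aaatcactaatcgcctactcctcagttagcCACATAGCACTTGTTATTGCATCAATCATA

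Counts of the 13 mitochondrial rows were very uneven. Over the 19 libraries mt-Nd4 had 1551895 counts, mt-Nd2 1261441, mt-Nd1 589384 and mt-Cytb 423882, together with mt-Nd5 (77497) and mt-Co1 (69529) nearly all of the mitochondrial counts. The 5 rows mt-Nd3, mt-Nd4l, mt-Co2, mt-Co3 and mt-Atp6, with 97.6% to 99.9% of windows shared, had 0 to 946 counts. Per kilobase of transcript they had 0 to 1389 counts, against 42487 to 1215260 for mt-Nd5, mt-Cytb, mt-Nd1, mt-Nd4 and mt-Nd2. Sharing and low counts did not go together in every row. All windows in the last 300 bases of mt-Co1 were shared with another transcript, and it kept 69529 counts, whereas mt-Nd6, on the other strand, and mt-Atp8 shared none and had 1239 and 60. How the aligner treated reads that match 2 places is not given in the sources used here, and the part of shared sequence in these counts was not tested. The values of those 5 rows and of mt-Co1 are therefore uncertain. For mt-Nd2, 14.9% of the windows in its last 300 bases were shared with Gm13339 on chromosome 2 (chr2:22590024-22590533), so its counts are less certain than those of mt-Nd1, mt-Nd4 and mt-Cytb, which shared none there. The mitochondrial sum rests almost wholly on mt-Nd1, mt-Nd2, mt-Nd4 and mt-Cytb.

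**Figure D1:**
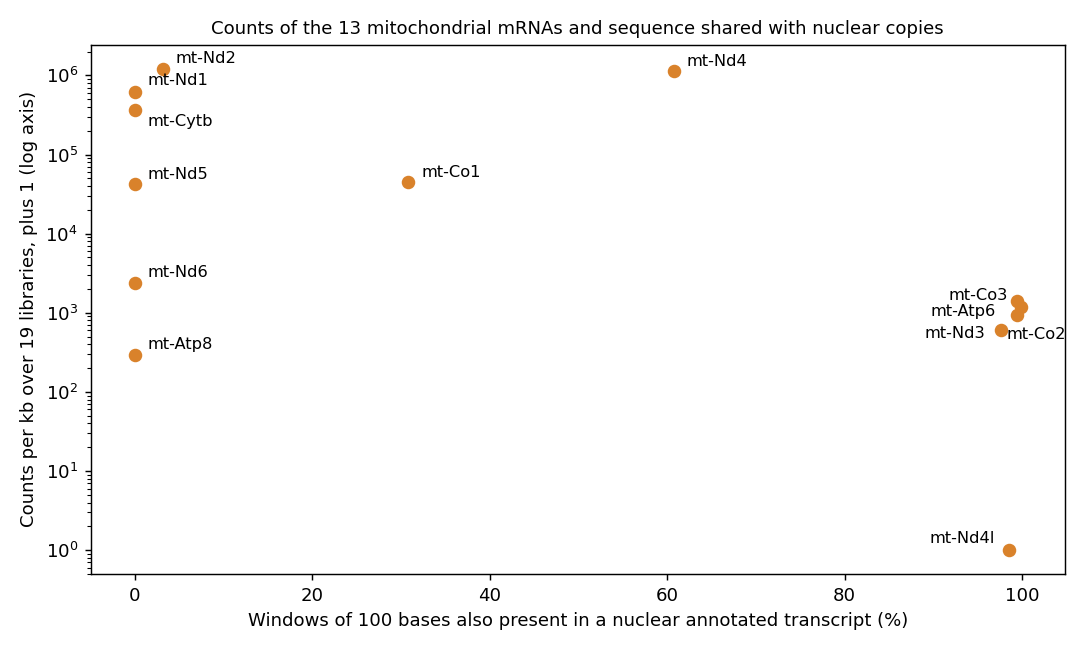
Total counts per kilobase over the 19 libraries (log axis, plus 1) of the 13 mitochondrial mRNAs against the percentage of their 100-base windows found in a nuclear transcript. The 5 mRNAs at 97.6% to 99.9% lie at 0 to 1389 counts per kilobase, and mt-Nd6 and mt-Atp8 are low without shared windows.

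As a share of all counts, nuclear and mitochondrial members moved in opposite directions in most, but not all, libraries of the TAA-treated groups. Nuclear members took 2.47%, 2.10%, 2.43%, 2.37% and 2.41% of the counts in vehicle libraries 1 to 5. In AAV-GFP they took 1.65% to 2.73% (median 1.85%), and in AAV-miR-34b/c 1.44% to 2.09% (median 1.68%). AAV-GFP 6 and 7 lay above every vehicle library and the other 5 AAV-GFP libraries lay below every one, while all 7 AAV-miR-34b/c libraries lay below the lowest vehicle library, AAV-miR-34b/c 1 only narrowly. Mitochondrial members took 3.73%, 5.65%, 3.73%, 3.80% and 3.94% in vehicle 1 to 5. They took 4.83% to 9.41% (median 7.85%) in AAV-GFP and 3.71% to 10.8% (median 8.28%) in AAV-miR-34b/c. AAV-GFP 1 to 4 and AAV-miR-34b/c 3 to 7 were above every vehicle library. AAV-GFP 5, 6 and 7, at 4.97%, 4.83% and 5.50%, were above every vehicle library except vehicle 2. AAV-miR-34b/c 2, at 3.73%, lay at the low end of the vehicle range and AAV-miR-34b/c 1, at 3.71%, just below it. These 2 had the highest neutrophil markers. Those markers summed to 398 and 424 CPM in AAV-miR-34b/c 3 and 4. In AAV-GFP 5, 6 and 7 they were at 74.2, 54.3 and 24.3 CPM, within the vehicle range.

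The log2 ratio of mitochondrial to nuclear counts, which needs no scaling between libraries, was 0.81 ± 0.35 (SD, n = 5) in vehicle, 1.78 ± 0.69 (SD, n = 7) in AAV-GFP and 2.01 ± 0.80 (SD, n = 7) in AAV-miR-34b/c. The mean differed from vehicle by 0.97 in AAV-GFP and by 1.20 in AAV-miR-34b/c, and between the vector groups by 0.23. With log2 CPM averaged over members in place of summed counts, the differences from vehicle were 0.64 and 0.62. With 1 library left out the difference between the vector groups ran from 0.07 (without AAV-GFP 6) to 0.43 (without AAV-miR-34b/c 1). These are descriptions, since the ratio is a score over the members. The difference between the vector groups was 0.01 when mt-Nd4 was left out and -0.02 with log2 CPM averaged. The ratio spanned 0.85 to 2.48 in AAV-GFP and 0.83 to 2.90 in AAV-miR-34b/c, so that the spread within each TAA-treated group was wider than the difference between them.

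**Figure D2:**
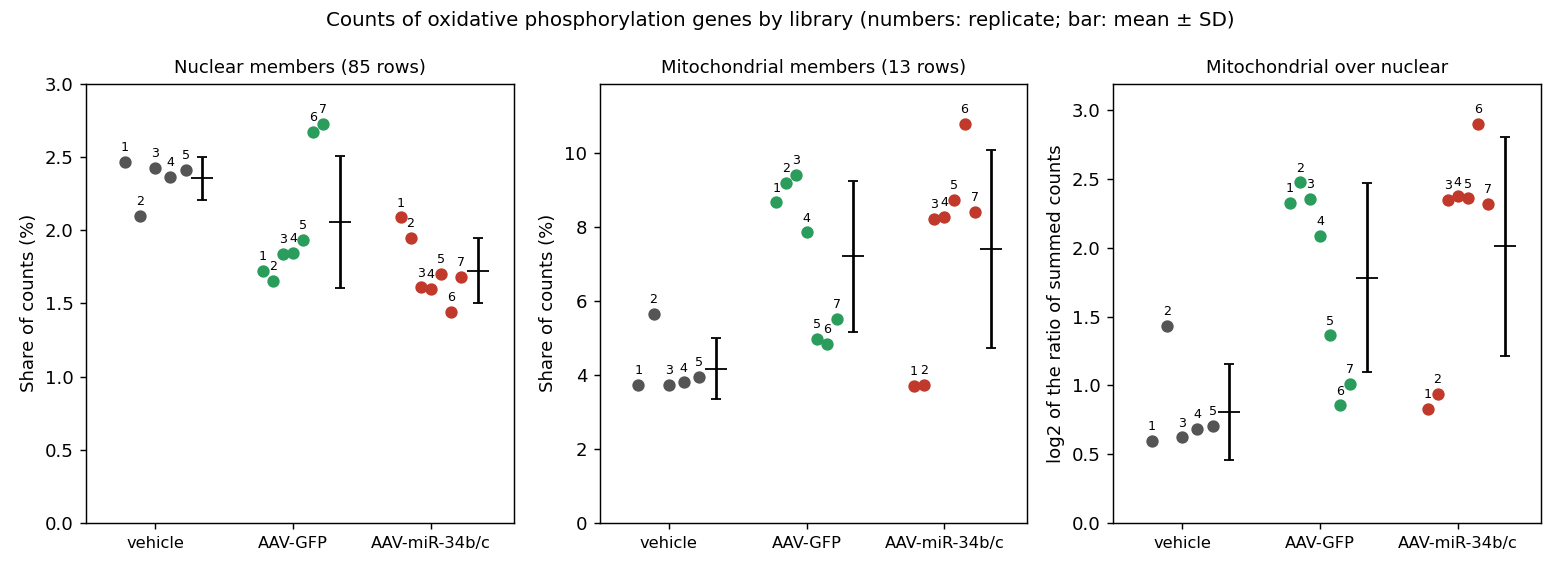
Share of counts (%) of the 85 nuclear and 13 mitochondrial members and the log2 ratio of their sums, with 1 point per library and its replicate number, and the mean ± SD beside each group. Vehicle libraries lie together apart from vehicle 2, while AAV-GFP 5 to 7 and AAV-miR-34b/c 1 and 2 lie closer to vehicle in the ratio than the rest of their groups.

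The spread between libraries was shared across the nuclear members rather than set by a few. Of the 76 nuclear members tested in AAV-GFP against vehicle, 36 to 54 were below every vehicle library in AAV-GFP 1 to 5, but 0 in AAV-GFP 6 and 1 in AAV-GFP 7, where 38 and 27 were above every vehicle library. In AAV-miR-34b/c 3 to 7, 37 to 55 were below every vehicle library, against 11 and 12 in AAV-miR-34b/c 1 and 2, where 28 and 14 were above every vehicle library. The share of all genes that lay outside the vehicle range in each library is not given here. These counts therefore describe the members and do not set them apart from other genes. In bulk liver, fewer cells of a type and less RNA per cell cannot be told apart.

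**Figure D3:**
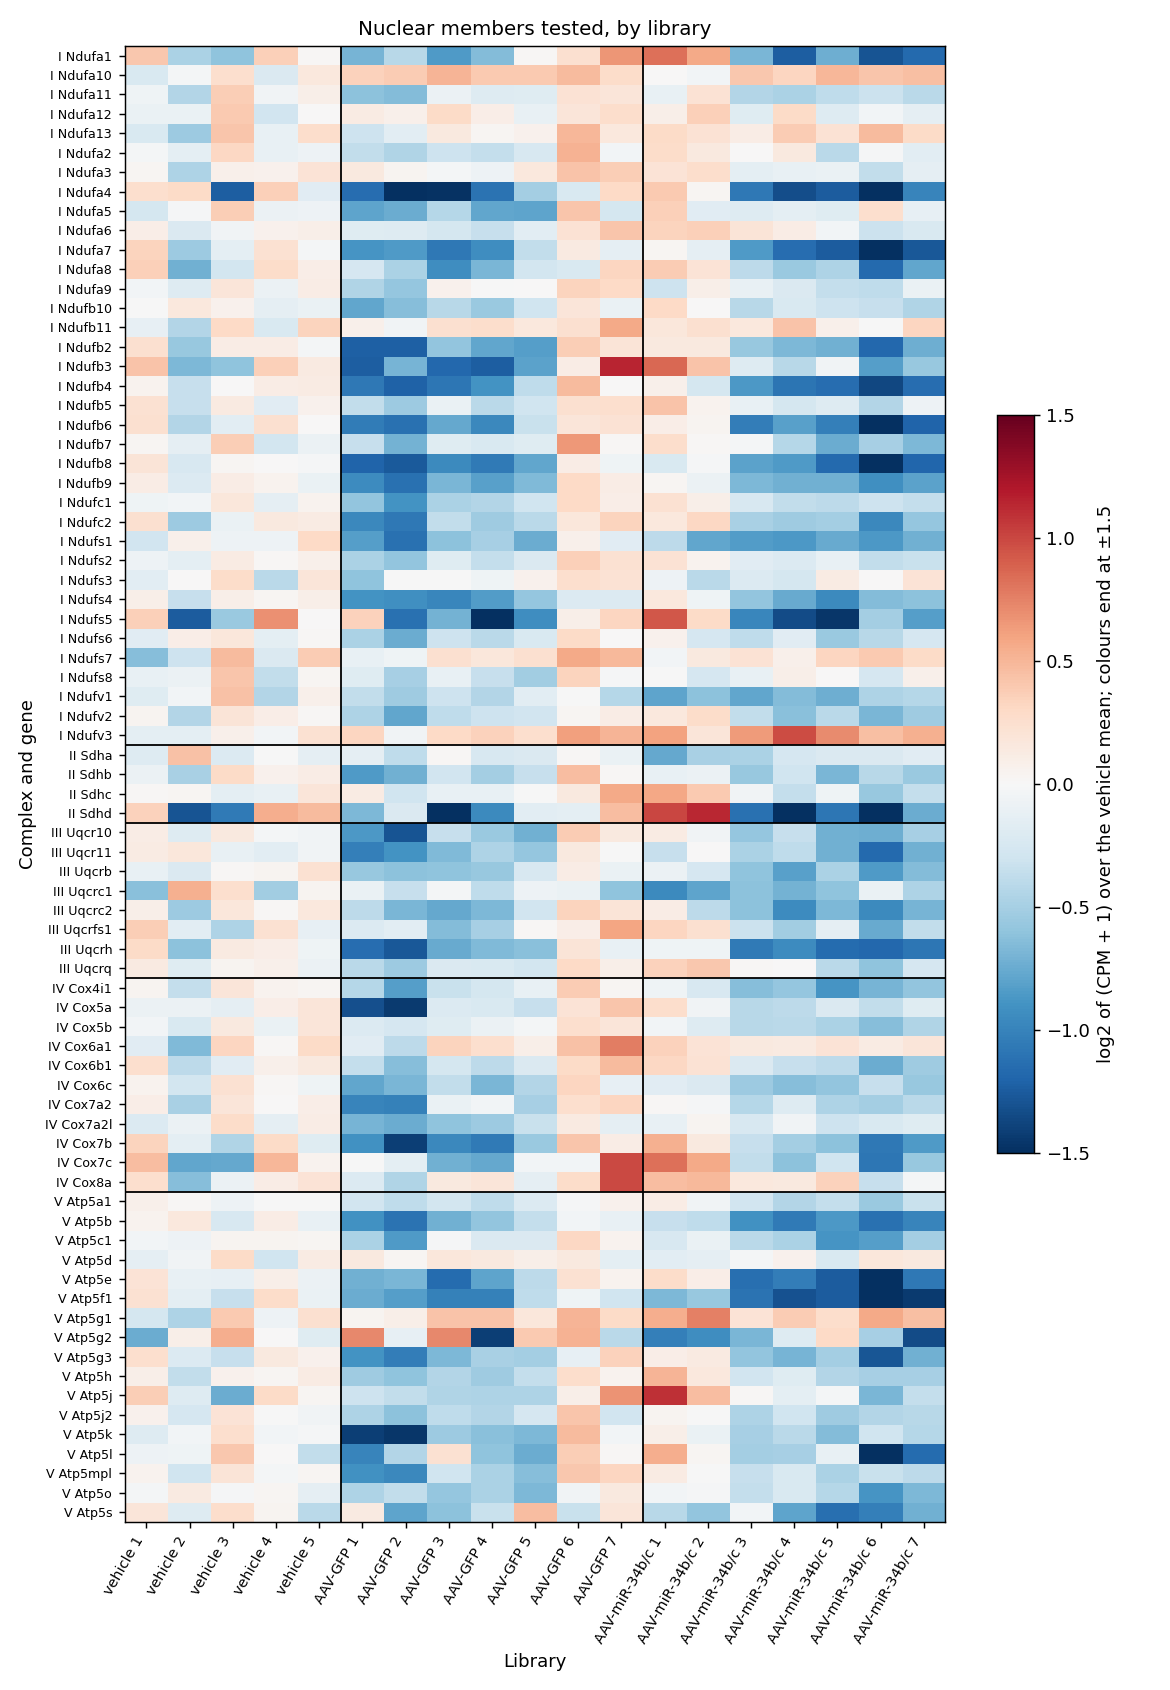
Log2 of CPM + 1 over the vehicle mean for the 76 nuclear members tested in AAV-GFP against vehicle (rows, by complex) in each library (columns); colours end at ±1.5. Most rows are blue in AAV-GFP 1 to 5 and in AAV-miR-34b/c 3 to 7, and white to red in AAV-GFP 6 and 7.

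AAV-GFP was compared with vehicle to ask how these genes differed in the TAA-injured liver with the control vector. Few nuclear members passed the test: 2 fell, Ndufs4 and Atp5f1, and 0 rose, of 76 tested, where 5.19% of all 9522 genes tested were called lower and 7.54% higher. The median log2 fold change of the nuclear members was -0.25, against -0.01 over all genes tested, and 61 of the 76 had a negative value. At an unadjusted p under 0.05 there were 11 lower and 2 higher, and the share lower was 14.5%, beside 13.5% of all genes. Of the mitochondrial members 2 of the 11 tested rose, mt-Nd2 and mt-Nd4, and 0 fell, with a median of 0.39.

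Ndufs4, an accessory subunit of the matrix arm of complex I (chr13:114287795-114388258), was at 114, 84.0, 113, 110 and 114 CPM in vehicle 1 to 5. It ranged from 53.9 to 92.9 CPM (median 59.5) in AAV-GFP, where 5 of 7 libraries were below every vehicle library. The log2 fold change was -0.63 ± 0.18 (SE, edgeR quasi-likelihood test, adjusted p = 0.0242, exact permutation p = 0.00631). Atp5f1, subunit b of the peripheral stalk that holds the ATP synthase head still (chr3:105942698-105960099), was at 482, 373, 325, 498 and 385 CPM in vehicle and at 204 to 394 CPM (median 246) in AAV-GFP. Again 5 of 7 AAV-GFP libraries were below every vehicle library and the groups overlapped through AAV-GFP 6 and 7. The log2 fold change was -0.58 ± 0.19 (SE, edgeR adjusted p = 0.0448, exact permutation p = 0.0189). Ndufb8, a membrane-arm subunit of complex I with the next smallest p, was not called by edgeR (-0.65 ± 0.22, edgeR adjusted p = 0.0620) but was by DESeq2.

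mt-Nd2, a proton-pumping core subunit of complex I (chrM:3914-4951), was at 10605, 12408, 10664, 11297 and 11396 CPM in vehicle and at 14213 to 34397 CPM (median 24207) in AAV-GFP. All 7 AAV-GFP libraries lay above all 5 vehicle libraries, by 1.02 ± 0.24 on the log2 scale (SE, edgeR adjusted p = 0.00869, exact permutation p = 0.00505). The call was kept in each of the 12 fits that left out 1 library, but not with close pairs summed (edgeR adjusted p = 0.1075). mt-Nd4, another membrane core subunit, was at 11097, 19684, 12230, 11680 and 11864 CPM in vehicle and at 13563 to 32876 CPM (median 23948) in AAV-GFP. Vehicle 2 lay inside the AAV-GFP range, and the log2 fold change was 0.81 ± 0.25 (SE, edgeR adjusted p = 0.0373, exact permutation p = 0.0189). Of the 12 fits that left out 1 library, 4 kept this call. mt-Co1, the catalytic subunit of complex IV, was called by DESeq2 and not by edgeR (0.34 ± 0.15, edgeR adjusted p = 0.125), although its 7 AAV-GFP values (1186 to 1480 CPM) were above its 5 vehicle values (922 to 1143 CPM) without overlap and the exact permutation p was 0.00126, the smallest that 7 against 5 allows.

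The other well counted mitochondrial mRNAs were not called by edgeR in AAV-GFP. mt-Nd1, a complex I subunit near the ubiquinone site, was at 7414, 10960, 7545, 7513 and 7831 CPM in vehicle and at 8993 to 12287 CPM (median 11573) in AAV-GFP. Only vehicle 2 lay inside the AAV-GFP range (0.39 ± 0.18, edgeR adjusted p = 0.154). mt-Cytb, which carries the ubiquinol sites of complex III, was at 5721, 8323, 4281, 5660 and 5287 CPM in vehicle and at 5153 to 9630 CPM (median 7725), with overlapping groups (0.37 ± 0.21, edgeR adjusted p = 0.243). mt-Nd5 was at 0.40 ± 0.17 (edgeR adjusted p = 0.124). Of the rows with few counts, mt-Co2 was at 0.68 ± 0.25 (edgeR adjusted p = 0.0790), mt-Nd6 at 0.61 ± 0.33, mt-Atp6 at 0.23 ± 0.23, mt-Co3 at 0.07 ± 0.23 and mt-Nd3 at -0.29 ± 0.48, and mt-Atp8 and mt-Nd4l had too few counts for a test.

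By complex, the nuclear medians in AAV-GFP were -0.25 for complex I, -0.20 for complex II, -0.30 for complex III, -0.18 for complex IV and -0.26 for complex V, and all 8 complex III members were negative with 0 called. Ndufa10, an accessory subunit of the membrane arm of complex I, was named after its values were seen: it was higher in all 7 AAV-GFP libraries than in any vehicle library and was called by DESeq2 but not by edgeR (0.40 ± 0.14, edgeR adjusted p = 0.0696, exact permutation p = 0.00126). Of the c subunit genes, Atp5g1 was at 0.29 ± 0.17, Atp5g2 at 0.29 ± 0.49 and Atp5g3 at -0.41 ± 0.21.

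The number of nuclear members called lower in AAV-GFP depended on single libraries. It was 18 without AAV-GFP 6 and 8 without AAV-GFP 7, 1 without vehicle 2 or 3 or AAV-GFP 4, and 0 without vehicle 1, 4 or 5 or AAV-GFP 1, 2 or 3. The share of all genes called lower also moved, to 8.94% without AAV-GFP 6 and 8.18% without AAV-GFP 7, and was 2.65% to 4.39% where the count was 0 or 1. With limma-voom quality weights 30 of the 76 nuclear members (39.5%) and 14.0% of all genes were called lower, and with close pairs summed 0 members and 0.846% of all genes. The number of mitochondrial members called was 0 with close pairs summed, where 227 of 10042 genes were called in either direction. With limma-voom it was 8, where 2687 of 9522 genes were called. Without vehicle 1, 3, 4 or 5 or AAV-GFP 1, 2, 3 or 4 it was 1. The share of all genes called higher in those fits is not given here.

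AAV-miR-34b/c was also set against vehicle. Here 16 nuclear members fell and 2 rose, of 74 tested, where 9.75% of all 9290 genes tested were called lower and 12.2% higher. The share of nuclear members called lower was 21.6% in this fit, but with close pairs summed it was 1.30%, beside 1.21% of all genes. Called lower were Ndufa7, Ndufb4, Ndufb8, Ndufb9, Ndufs1 and Ndufv1 of complex I, Uqcr11, Uqcrb, Uqcrc1, Uqcrc2 and Uqcrh of complex III, Cox4i1 and Cox6c of complex IV, and Atp5b, Atp5c1 and Atp5f1 of complex V, and called higher were Ndufv3 and Atp5g1. The median over nuclear members was -0.27, against 0.02 over all genes tested. By complex it was -0.22 for complex I (-0.19 without Ndufa4), -0.26 for complex II, -0.51 for complex III, -0.20 for complex IV and -0.30 for complex V. Mitochondrial members had a median of 0.23, with 2 of 11 called higher, again mt-Nd2 and mt-Nd4, and 0 called lower.

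**Figure D4:**
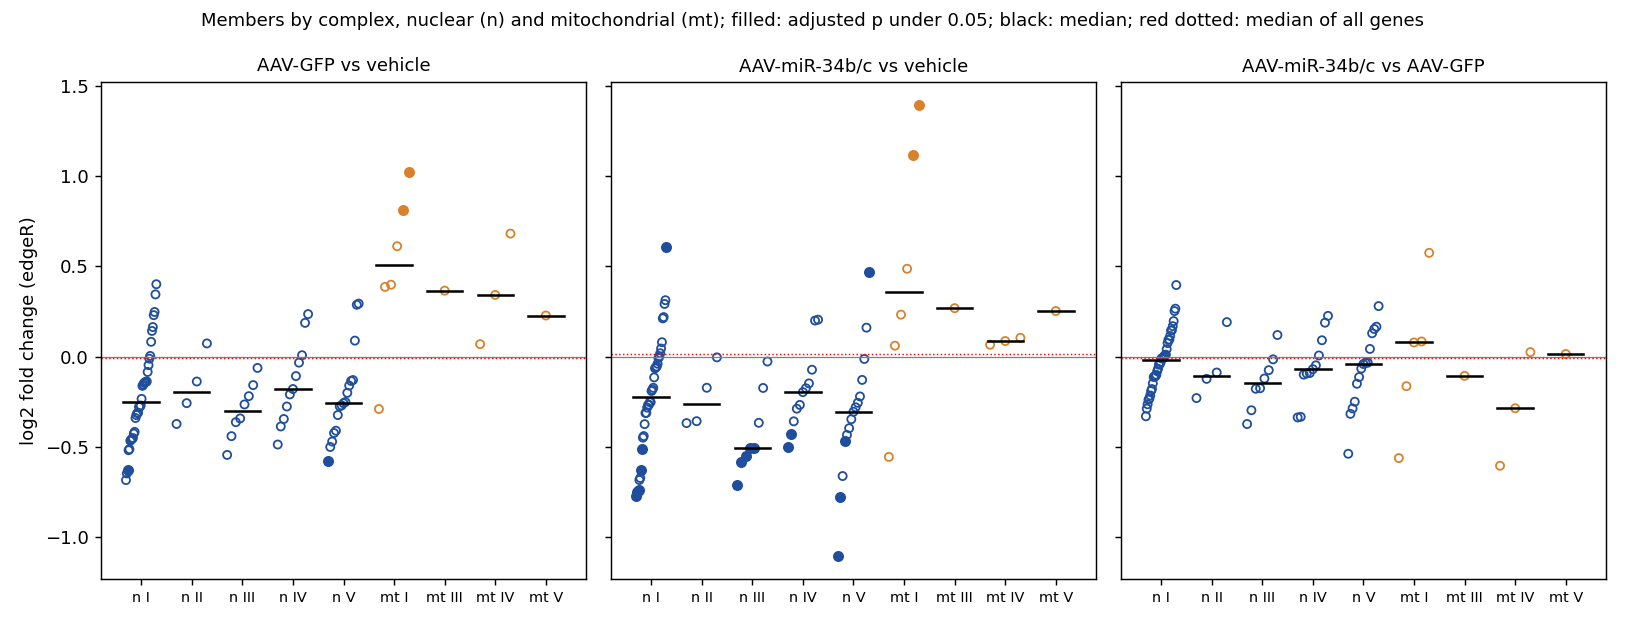
Log2 fold change (edgeR) of each member tested, by genome and complex, in the 3 comparisons; filled points have an adjusted p under 0.05, black lines are medians and the red dotted line is the median of all genes tested. Most nuclear points lie below 0 and most mitochondrial points above 0 in both comparisons with vehicle, and no point is filled between the vector groups.

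In complex I, Ndufs1, the iron-sulfur subunit that carries electrons away from the flavin (chr1:63143596-63176833), was at 92.2, 119, 108, 107 and 139 CPM in vehicle and at 61.8 to 85.7 CPM (median 65.6) in AAV-miR-34b/c. The groups did not overlap, and the log2 fold change was -0.74 ± 0.14 (SE, edgeR adjusted p = 0.00241, exact permutation p = 0.00126). Ndufv1, the subunit that binds NADH (chr19:4007384-4012806), was at 266, 295, 410, 222 and 319 CPM in vehicle and at 174 to 224 CPM (median 192) in AAV-miR-34b/c. It overlapped vehicle through vehicle 4 alone, with a log2 fold change of -0.63 ± 0.15 (SE, edgeR adjusted p = 0.00872). Ndufb4, of the membrane arm, was at 133, 100, 128, 139 and 139 CPM in vehicle and at 48.8 to 135 CPM (median 59.3). AAV-miR-34b/c 1 and 2, at 135 and 106 CPM, lay within the vehicle range and the other 5 libraries below it (-0.74 ± 0.23, edgeR adjusted p = 0.0298). The call of Ndufb4 was kept in 3 of 12 fits that left out a library, and not with close pairs summed (edgeR adjusted p = 0.158). Ndufv3, a small accessory partner of Ndufv1 (chr17:31520115-31531331), went the other way, from 146, 146, 170, 157 and 190 CPM to 183 to 320 CPM (median 247). In 6 of 7 AAV-miR-34b/c libraries it was above every vehicle library (0.61 ± 0.15, edgeR adjusted p = 0.00919). In AAV-GFP its log2 fold change was 0.34 ± 0.15 (edgeR adjusted p = 0.130).

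Complex II, whose 4 subunits are all nuclear and include the succinate dehydrogenase flavoprotein Sdha, had no member called in the edgeR fits to all libraries with TMM scaling, nor by DESeq2. In AAV-miR-34b/c against vehicle limma-voom called 2, Sdhb and Sdhd, both lower, and Sdhb was also called lower with library size only and without vehicle 2, and in AAV-GFP against vehicle with the replicate block. In AAV-miR-34b/c against vehicle Sdha was at -0.36 ± 0.15 (SE, edgeR adjusted p = 0.101) and the iron-sulfur subunit Sdhb at -0.37 ± 0.16 (edgeR adjusted p = 0.104), while the membrane anchor Sdhc was at 0.00 ± 0.19 and Sdhd at -0.17 ± 0.53.

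In complex III, all 8 nuclear members were negative against vehicle in AAV-miR-34b/c and 5 were called lower, where 9.75% of all genes were. Each of the 5 kept its call in 2 to 6 of the 12 fits that left out a library, and none did with close pairs summed (edgeR adjusted p = 0.166 to 0.252). Uqcrb, which helps form the ubiquinone site, was at 262, 243, 287, 292 and 333 CPM in vehicle and at 157 to 266 CPM (median 186) in AAV-miR-34b/c, where 6 of 7 libraries were below every vehicle library (-0.51 ± 0.16, edgeR adjusted p = 0.0283). Uqcrh, the hinge protein between cytochrome c1 and cytochrome c, was at 1101, 588, 993, 967 and 860 CPM in vehicle and at 399 to 864 CPM (median 432). AAV-miR-34b/c 1 and 2, at 861 and 864 CPM, again lay within the vehicle range and the other 5 below it (-0.71 ± 0.23, edgeR adjusted p = 0.0388). Uqcr11, a small accessory subunit, was at 377, 388, 319, 308 and 331 CPM in vehicle and at 153 to 346 CPM (median 248), with 6 of 7 libraries below vehicle (-0.50 ± 0.17, edgeR adjusted p = 0.0455). The core subunits Uqcrc1 and Uqcrc2 were called at -0.58 ± 0.20 and -0.55 ± 0.19. Every window in the last 300 bases of Uqcrc2 also lies in an annotated transcript of Pdzd9, and 25.9% of those of Uqcrb lie in the pseudogenes Gm16089 or Gm5457, so their counts are less certain.

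In complex IV, Cox4i1, the ubiquitous form of the regulatory subunit 4, was at 535, 406, 592, 538 and 530 CPM in vehicle and at 280 to 499 CPM (median 345) in AAV-miR-34b/c, with 5 of 7 libraries below vehicle (-0.50 ± 0.16, edgeR adjusted p = 0.0342). Cox6c was at -0.43 ± 0.14 (edgeR adjusted p = 0.0408), and 22.9% of the windows in its last 300 bases are shared with Cox6c2. Cox4i1 and Cox6c each kept the call in 3 of 12 fits that left out a library. Neither kept it with close pairs summed (edgeR adjusted p = 0.229 and 0.305).

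Tissue-specific forms were close to absent. Cox8b and Cox7b2 had 0 counts in all 19 libraries, and Cox4i2 had 11 counts over all of them, Cox6a2 25, Cox6b2 39, Ndufa4l2 39 and Cox7a1 142, so these 7 rows were not tested in any comparison. Their liver counterparts were well covered. By edgeR they were not called in AAV-GFP, nor, apart from Cox4i1, in AAV-miR-34b/c. In AAV-GFP and AAV-miR-34b/c against vehicle, Cox6a1 was at 0.24 and 0.20, Cox6b1 at -0.11 and -0.20, Cox7a2 at -0.21 and -0.27, Cox7a2l at -0.39 and -0.15, Cox8a at 0.19 and 0.20 and Ndufa4 at -0.68 and -0.68 (SE 0.31 and 0.36). Summed levels of skeletal and heart muscle markers were 0 to 3.07 CPM, with Myh6 and Myh7 at 0 counts throughout.

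In complex V, Atp5f1 was 123 to 277 CPM (median 173) in AAV-miR-34b/c, below all 5 vehicle libraries. Its log2 fold change of -1.10 ± 0.20 (SE, edgeR adjusted p = 0.00146, exact permutation p = 0.00252), 2.15-fold lower, was the most negative of the nuclear members in this comparison. Atp5b, the catalytic β subunit (chr10:128083273-128090391), was at 796, 858, 652, 829 and 710 CPM in vehicle and at 353 to 605 CPM (median 408) in AAV-miR-34b/c. The groups did not overlap (-0.78 ± 0.17, edgeR adjusted p = 0.00450, exact permutation p = 0.00252). Atp5c1, the γ subunit of the rotor, was at 180, 176, 191, 191 and 189 CPM in vehicle and at 100 to 173 CPM (median 133), also without overlap (-0.47 ± 0.15, edgeR adjusted p = 0.0343). Its call was kept in 3 of 12 fits that left out a library, and not with close pairs summed (edgeR adjusted p = 0.185). The c subunit of the membrane ring is made from 3 genes, Atp5g1, Atp5g2 and Atp5g3, that differ in their targeting peptides. Atp5g1 (chr11:96068852-96075670) rose, from 153, 133, 241, 174 and 216 CPM in vehicle to 210 to 309 CPM (median 251), by 0.47 ± 0.16 (edgeR adjusted p = 0.0484), with 4 of 7 libraries above vehicle. Atp5g3, with the most counts of the 3, was at -0.43 ± 0.22 (edgeR adjusted p = 0.157), and Atp5g2 had 133 counts over all libraries and was not tested here. The call of Atp5g1 was kept in 1 of 12 fits that left out a library.

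For the mitochondrial members in AAV-miR-34b/c, mt-Nd2 was at 12102 to 37735 CPM (median 25925), with 6 of 7 libraries above every vehicle library (1.12 ± 0.25, edgeR adjusted p = 0.00539, exact permutation p = 0.00379). mt-Nd4 was at 14925 to 54371 CPM (median 38091), with 5 of 7 above every vehicle library (1.39 ± 0.30, edgeR adjusted p = 0.00464, exact permutation p = 0.00631). AAV-miR-34b/c 1 and 2 had the lowest values of the group for both genes. With close pairs summed neither gene was called (edgeR adjusted p = 0.0692 for mt-Nd2 and 0.0700 for mt-Nd4). The complex I subunit mt-Nd5 was called by DESeq2 and not by edgeR (0.49 ± 0.18, edgeR adjusted p = 0.0555). Not called by either were mt-Nd1 (0.23 ± 0.16), mt-Cytb (0.27 ± 0.20), mt-Co1 (0.07 ± 0.12), mt-Co3 (0.10 ± 0.21), mt-Atp6 (0.25 ± 0.22), mt-Co2 (0.09 ± 0.24), mt-Nd6 (0.06 ± 0.26) and mt-Nd3 (-0.55 ± 0.43). The mitochondrial mRNAs are cut from long joint transcripts, and their ratios to each other varied between libraries. Counts of mt-Nd4 per count of mt-Nd1 were 1.497 to 1.796 in vehicle, 1.35 to 2.80 in AAV-GFP and 1.68 to 5.14 in AAV-miR-34b/c, where the lowest values, 2.14 and 1.68, were those of libraries 1 and 2. Counts of mt-Cytb per count of mt-Nd1 were 0.567 to 0.772, 0.445 to 0.807 and 0.548 to 0.852.

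**Figure D5:**
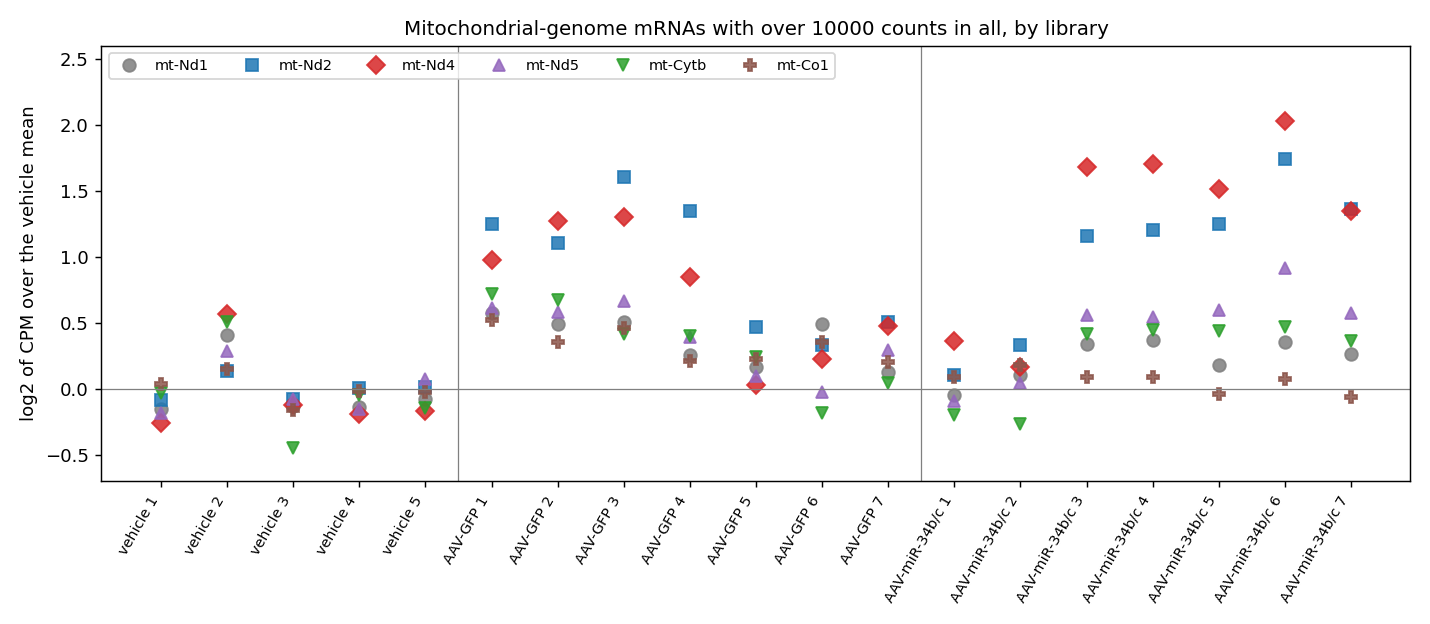
Log2 of CPM over the vehicle mean for the 6 most counted mitochondrial mRNAs in each library. The points of mt-Nd2 and mt-Nd4 lie highest in AAV-GFP 1 to 4 and AAV-miR-34b/c 3 to 7, while mt-Co1 stays close to the vehicle mean in AAV-miR-34b/c.

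The number of nuclear members called in AAV-miR-34b/c against vehicle was 45 with limma-voom (60.8%, beside 41.3% of all genes), 32 with library size as the only scaling (43.2% beside 25.3%), 11 with no filter on low counts (13.6% beside 11.7%) and 1, Atp5f1, with close pairs summed (1.30% beside 3.12%). It was 5 to 7 without vehicle 1, 3, 4 or 5 or AAV-miR-34b/c 3, 4, 5, 6 or 7 (6.76% to 9.46%), where at least 13.4% of all genes were called, and 24 without AAV-miR-34b/c 1 (32.4% beside 29.3%). The share of nuclear members called was thus above that of all genes in some of these fits and below it in others. Atp5f1, Atp5b, Ndufs1, Ndufv1, Ndufv3, mt-Nd2 and mt-Nd4 kept their calls in each of the 12 fits that left out a library. Of these genes, only Atp5f1 kept its call with close pairs summed.

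The comparisons with vehicle share those 5 libraries, so their values are set side by side only. For the 18 nuclear members called in AAV-miR-34b/c, the log2 fold change in AAV-GFP was -0.58 for Atp5f1, -0.50 for Atp5b, -0.16 for Atp5c1, -0.51 for Ndufs1, -0.31 for Ndufv1, -0.52 for Ndufa7, -0.47 for Ndufb4, -0.65 for Ndufb8, -0.46 for Ndufb9, -0.34 for Uqcrb, -0.54 for Uqcrh, -0.44 for Uqcr11, -0.22 for Uqcrc1, -0.26 for Uqcrc2, -0.18 for Cox4i1, -0.35 for Cox6c, 0.34 for Ndufv3 and 0.29 for Atp5g1. Called in both were Atp5f1, mt-Nd2 and mt-Nd4.

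AAV-miR-34b/c against AAV-GFP asks what the miRNA vectors changed in the injured liver. In these libraries the neutrophil markers Retnlg, S100a8 and S100a9 were higher with the miRNA vectors (log2 fold change 3.97, 4.36 and 4.31), and their part in the values of the members was not tested. No member passed the edgeR test, nuclear (0 of 74) or mitochondrial (0 of 10), where 1.42% of all 9252 genes tested were called lower and 1.95% higher. Medians were -0.06 over nuclear members, -0.05 over mitochondrial members and -0.01 over all genes tested. With 1 library left out the nuclear median ran from -0.13 (without AAV-miR-34b/c 1) to 0.04 (without AAV-GFP 7), so that its sign turned, as it also did without AAV-GFP 6 (0.02), and the mitochondrial median ran from -0.16 (without AAV-GFP 7) to -0.03 (without AAV-miR-34b/c 2). An unadjusted p under 0.05 was reached by 4 nuclear and 3 mitochondrial members, all lower, where 7.77% of all genes were lower at that p. DESeq2 called 0 nuclear members and 1 mitochondrial member, mt-Co1, beside 5.78% of all genes, and limma-voom called 3 nuclear members (4.05%) and 2 mitochondrial members, beside 8.79% of all genes. With library size as the only scaling, which moved the median of all genes to -0.20, 7 nuclear (9.46%) and 2 mitochondrial members were called, all lower, beside 5.46% of all genes called lower, and relative to that shift the medians were -0.05 and -0.03.

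The 3 nuclear members with the smallest p were not called by edgeR: Atp5f1 (-0.54 ± 0.20, edgeR adjusted p = 0.172), Ndufv1 (-0.33 ± 0.12, edgeR adjusted p = 0.177) and Uqcrc1 (-0.37 ± 0.15, edgeR adjusted p = 0.203). Atp5f1 and Uqcrc1 were called by limma-voom. For mt-Co1 the values were 1186 to 1480 CPM in AAV-GFP and 988 to 1168 CPM in AAV-miR-34b/c without overlap. Its log2 fold change was -0.29 ± 0.12 (edgeR adjusted p = 0.220), and the exact permutation p of 0.000583 is the smallest that 7 against 7 allows. mt-Nd4 was at 0.57 ± 0.28 (edgeR adjusted p = 0.346) and mt-Nd2 at 0.08 ± 0.26 (edgeR adjusted p = 0.927). mt-Co2 was at -0.60 ± 0.21 (edgeR adjusted p = 0.139) on 14 to 83 counts per library, and mt-Nd6, the only mitochondrial mRNA from the other strand, at -0.56 ± 0.25 (edgeR adjusted p = 0.270). The remaining mitochondrial members lay between -0.16 (mt-Nd1) and 0.08 (mt-Nd5). Among the isoform sets, Cox4i1 was at -0.33 ± 0.18, Cox7a2l at 0.23 ± 0.15, Atp5g1 at 0.17 ± 0.13, and Cox6a1, Cox6b1, Cox7a2, Cox8a, Ndufa4 and Atp5g3 lay between -0.10 and 0.01. A p that misses the threshold does not show that the vector groups were alike.

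Other genes of mitochondrial energy metabolism, taken from lists of pathway members, gave the following counts, to be read against the 5.19% and 9.75% of all genes called lower in AAV-GFP and AAV-miR-34b/c against vehicle. Of the mitochondrial ribosome genes 74 of 78 were tested. In AAV-GFP 4 fell and 0 rose (median -0.29) and in AAV-miR-34b/c 8 fell and 1 rose (median -0.27). The shares called lower, 5.41% and 10.8%, were close to those of all genes. Mrpl12 was among them, at -0.86 ± 0.19 (edgeR adjusted p = 0.00675) and -0.85 ± 0.18 (edgeR adjusted p = 0.00381). Assembly factors (43 tested of 45) gave 4 lower and 1 higher in AAV-GFP and 3 lower and 2 higher in AAV-miR-34b/c, with medians of -0.22 and -0.10 and shares called lower of 9.30% and 6.98%. Ndufaf4, needed to build complex I, was at -0.97 ± 0.19 (edgeR adjusted p = 0.00277) and -1.12 ± 0.16 (edgeR adjusted p = 0.000323), while Sco2, a copper chaperone of complex IV, was at 0.77 ± 0.17 and 0.58 ± 0.20.

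Genes outside complex II of the citric acid cycle (13 tested of 13) gave 3 lower in AAV-GFP and 5 lower in AAV-miR-34b/c (23.1% and 38.5%), and 0 higher. Idh3a, the catalytic subunit of the NAD-dependent isocitrate dehydrogenase, was at -0.80 ± 0.20 and -0.97 ± 0.18. Among electron carriers and exchangers (9 of 9) 0 were called in AAV-GFP. In AAV-miR-34b/c Slc25a3, the phosphate carrier that feeds the ATP synthase, and Etfdh fell, and Ucp2 rose by 1.01 ± 0.24 (edgeR adjusted p = 0.00843). Of outer membrane, import and folding genes (15 of 15) Timm23 fell in both, at -0.86 and -0.84, and the chaperonin Hspd1 rose in AAV-miR-34b/c by 0.76 ± 0.14. Against AAV-GFP, 0 genes of these 5 lists were called in AAV-miR-34b/c with edgeR.

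Genes that copy, transcribe or process the mitochondrial genome (24 tested of 29 listed) gave 2 lower and 0 higher in AAV-GFP, the poly(A) polymerase Mtpap and Fastkd2. In AAV-miR-34b/c 3 fell (Mtpap, Fastkd2 and the elongation factor Tefm) and Lrpprc, which stabilises mitochondrial mRNAs, rose by 1.01 ± 0.21 (edgeR adjusted p = 0.00381). Lrpprc was also the only gene of these lists called between the vector groups (1.15 ± 0.22, edgeR adjusted p = 0.00597). Of 10 regulators, Esrra fell in AAV-GFP (-0.92 ± 0.26, edgeR adjusted p = 0.0260) and 0 were called in AAV-miR-34b/c, against vehicle or AAV-GFP.

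Markers of other cells moved in some groups, and their part in the values of the members was not tested. Of 10 hepatocyte markers, all tested, Hnf4a was called higher in both TAA-treated groups (0.86 and 1.21), and in AAV-miR-34b/c Serpina1a rose (0.55) and Cps1 fell (-0.90). Of 12 macrophage markers (12, 12 and 11 tested in AAV-GFP against vehicle, AAV-miR-34b/c against vehicle and AAV-miR-34b/c against AAV-GFP) 5 fell in AAV-GFP and 2 in AAV-miR-34b/c, and 2 were higher in AAV-miR-34b/c than in AAV-GFP. Their summed levels were 534 to 1017 CPM in vehicle, 444 to 724 CPM in AAV-GFP and 652 to 895 CPM in AAV-miR-34b/c, and the lists named next follow the same order of groups and of comparisons. Of 9 stellate cell and fibroblast markers (8, 6 and 7 tested) 4 rose in AAV-GFP against vehicle and 2 fell between the vector groups (summed levels 347 to 535, 388 to 511 and 247 to 482 CPM). Of 7 endothelial markers (6 tested in each comparison) Lyve1 rose and Cdh5 fell in AAV-miR-34b/c against vehicle, and Lyve1 was higher than in AAV-GFP too (192 to 242, 161 to 219 and 226 to 276 CPM). Of 6 cholangiocyte markers (2 tested in each) Spp1 rose in AAV-GFP and Sox9 in AAV-miR-34b/c (18.2 to 40.8, 52.6 to 94.5 and 49.9 to 119 CPM), and of 5 erythroid markers (all tested) Alas2 rose in both (108 to 374, 163 to 805 and 191 to 396 CPM). The 8 T or B cell markers summed to 0.727 to 5.92 CPM in any library and were not tested.

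Promoters of the nuclear members are shown because members of several complexes were called lower in AAV-miR-34b/c against vehicle. Among them only Atp5f1 kept its call with close pairs summed, and shared control of the members was not tested. RefSeq windows of GRCm38.p6, from 250 bases before to 50 after the start of transcription, matched 67 of the 85 nuclear rows (66 genes). Windows with an NRF-1 core (GCGCATGCG, both strands) were found in 8 of the 66 genes (12.1%) against 2.74% of all 16508 protein-coding genes with a window. An ETS core (CCGGAAG), as bound by GABP, was in 16 (24.2% against 13.4%) and a YY1 core (AAGATGGCG) in 7 (10.6% against 2.25%). Of the members called, Uqcrc1 and Uqcr11 held an NRF-1 core, Uqcr11 and Uqcrh an ETS core and Ndufs4 a YY1 core. The windows of Atp5b, Atp5c1, Atp5g1, Ndufa7, Ndufb4, Ndufb8, Ndufv1 and Ndufv3 held none of the 3, and no window was matched for Atp5f1, Ndufs1, Cox4i1, Cox6c, Uqcrb, Uqcrc2 and Ndufb9. The stretches around these cores follow, on the strand of the gene, with the cores in capitals and positions counted from the start of transcription.
Uqcrc1, 15 to 49: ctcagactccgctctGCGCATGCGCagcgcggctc
Uqcr11, -81 to 18: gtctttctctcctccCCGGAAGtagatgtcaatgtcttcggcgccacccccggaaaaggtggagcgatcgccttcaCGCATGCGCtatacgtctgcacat
Uqcrh, -25 to 11: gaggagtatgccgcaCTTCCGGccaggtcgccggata
Ndufs4, 20 to 49: gcgtttgcctacaggAAGATGGCGgcggtc
The windows of these promoters are chr9:108936398-108936697 for Uqcrc1, chr10:80406772-80407071 for Uqcr11, chr4:116075021-116075320 for Uqcrh and chr13:114388045-114388344 for Ndufs4. A match describes the letters in a window and is no evidence of binding.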

How the data were processed

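Per the labels, the authors made QuantSeq 3′ mRNA libraries from 100 ng of liver RNA (the study's methods give another amount and name a provider's service), sequenced single-end reads of 100 bp and deposited 1 table of raw counts per gene for the 19 libraries; the labels name STAR and mm10, and the versions and the strand setting are not given in the sources used here. Every column was mapped to a library by its name. From these counts, genes were kept with filterByExpr (minimum count 10, minimum total 15), scaled by TMM and tested with edgeR 4.0.16 (quasi-likelihood test, R 4.3.3), with the 2 groups of a comparison in each fit, Benjamini-Hochberg adjustment over all genes tested and a threshold of 0.05. Fold changes are log2. The SE given with them was computed as the absolute log2 fold change over the square root of the edgeR F statistic. CPM values use TMM over all 19 libraries. Exact permutation tests (two-sided) were run on log2 CPM to which a prior of 2 counts was added. The labels call the libraries biological replicates, and whether the close pairs share an animal or a preparation is not given there. Alternatives included DESeq2 1.42.0, limma-voom (limma 3.58.1), other scalings and filters, and leaving out each library.

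Named were all mitochondrial members, the isoform sets, and in each comparison and complex up to 3 called nuclear members per direction with the smallest adjusted p. Where fewer than 3 were called, the 3 with the smallest p were given. Ndufa10 in AAV-GFP against vehicle, Ndufa7, Ndufb8, Ndufb9, Uqcrc1 and Uqcrc2 in AAV-miR-34b/c against vehicle and the complex II genes were named outside this rule, after their values were seen. The members and all lists were chosen with earlier results of these data known. Counting error alone gives the share of nuclear members a 95% Wilson interval of 2.45% to 2.49% in vehicle 1, narrow beside the spread between libraries.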

Additional observations from a re-analysis of the deposited data

Results flagged for a closer look

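Within each group, the lowest and highest library were set against the rest for the shares, the ratio and the named members, in 114 sets of values. In 10 of them 1 library stood apart by Dixon's criterion, where chance gives about 1 in 20 (5.7 of 114). Vehicle 2 accounted for 8. Its nuclear share was 2.10%, its mitochondrial share 5.65% and its log2 ratio 1.43, against at most 0.71 in the other vehicle libraries. In log2 CPM it stood high for mt-Nd1 (13.42) and mt-Nd4 (14.26), and low for Ndufb4 (6.65), Ndufs4 (6.40) and Cox7a2 (8.76). AAV-miR-34b/c 1 was the highest of its group for Ndufs1 (6.43, next 6.11) and Cox6a1 (9.43, next 9.29). The cause was not tested. Without vehicle 2 the count of nuclear members called in AAV-miR-34b/c against vehicle was 16 in place of 18.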

How the results depend on the processing

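Medians of log2 fold change and the ratio moved by less than 1 SD between libraries of a group (0.19 to 0.31 for the mean log2 CPM of the members, 0.55 to 0.74 for the ratio) under each alternative, a wide margin beside the medians themselves. The nuclear median of -0.25 in AAV-GFP against vehicle became -0.15 with close pairs summed, -0.39 with limma-voom and -0.44 with the replicate block, and that of -0.27 in AAV-miR-34b/c became -0.42 with library size only and -0.18 with the replicate block. The mitochondrial median of 0.23 in AAV-miR-34b/c became 0.0946 with library size only and 0.36 without vehicle 2. Between the vector groups, library size only gave -0.25 and -0.23, close pairs summed -0.13 and -0.0080, and the mitochondrial median was -0.12 without a filter. The ratio difference in AAV-GFP and AAV-miR-34b/c against vehicle became 0.64 and 0.62 with log2 CPM averaged, and between the vector groups 0.44 with close pairs summed. Counts of calls did not hold, and the share of all genes called moved too. For AAV-GFP against vehicle, the nuclear count of 2 became 4 with DESeq2 (5.26%, beside 16.4% of all genes), 31 with limma-voom (40.8% beside 28.2%), 1 with all 3 groups in 1 fit (1.32% beside 10.7%), 0 with close pairs summed (beside 2.26%), and 0 to 18 with 1 library left out. The mitochondrial count of 2 became 3 with DESeq2, 8 with limma-voom, 1 with all groups in 1 fit, 0 with close pairs summed and 1 to 3 with 1 library left out. For AAV-miR-34b/c against vehicle, the nuclear count of 18 became 11 without a filter (beside 11.7% of all genes). It was 32 with library size only (25.3%), 45 with limma-voom (41.3%) and 1 with close pairs summed (3.12%). With 1 library left out it ran from 5 to 24. In that comparison the mitochondrial count of 2 became 3 with DESeq2, where 2433 of 9290 genes were called. It became 5 with limma-voom and 0 with close pairs summed. Between the vector groups, the nuclear count of 0 became 7 with library size only (beside 6.74% of all genes), 3 with limma-voom (8.79%) and 0 to 1 with 1 library left out, and the mitochondrial count of 0 became 2 with library size only, 1 with DESeq2 (5.78%) and 2 with limma-voom. Close pairs summed leave fewer samples; the cause of the other changes was not tested.

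With the replicate block, the nuclear count was 39 in AAV-GFP (51.3%, beside 32.9% of all genes) and 6 in AAV-miR-34b/c against vehicle (8.11% beside 10.2%) and the mitochondrial count in AAV-GFP 6. The replicate numbers were not shown to pair the libraries: 2 of 5, 1 of 5 and 2 of 7 same-numbered pairs had a correlation over 0.1, and 2, 0 and 1 libraries correlated best with their own number.

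Reversals of log2 fold change were all in members not called in the comparison concerned. With library size only, AAV-miR-34b/c against vehicle gave -0.0791 for mt-Nd6, -0.0804 for mt-Co1, -0.0541 for mt-Co2 and -0.0276 for mt-Co3, and against AAV-GFP -0.0901 for mt-Nd2, -0.10 for mt-Nd5, -0.15 for mt-Co3, -0.17 for mt-Atp6, -0.19 for Cox8a and -0.0311 for Atp5g1. The median of all genes was -0.13 and -0.20 under that scaling. With limma-voom Cox8a was at -0.0223 in AAV-GFP against vehicle, and mt-Atp6 at -0.0687, Cox6a1 at 0.0398 and Cox7a2 at 0.0465 between the vector groups. With the replicate block mt-Co3 was at -0.0012 and Cox8a at -0.0547 in AAV-GFP and mt-Co3 at -0.0878 in AAV-miR-34b/c against vehicle. With close pairs summed Cox6b1 was at 0.0061 in AAV-GFP and mt-Nd6 at -0.14 in AAV-miR-34b/c against vehicle, and Cox8a at -0.12 between the vector groups.

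With 1 library left out, ranges that crossed 0 were, in AAV-GFP against vehicle, -0.48 to 0.19 for mt-Nd3, -0.0628 to 0.15 for mt-Co3 and -0.0050 to 0.28 for Cox8a. In AAV-miR-34b/c against vehicle they were -0.0572 to 0.43 for mt-Nd6, -0.0256 to 0.17 for mt-Co2 and -0.0192 to 0.17 for mt-Co3. Between the vector groups they were -0.0557 to 0.21 for mt-Nd2, -0.0098 to 0.15 for mt-Nd5, -0.10 to 0.16 for mt-Co3, -0.0631 to 0.14 for mt-Atp6, -0.31 to 0.25 for Ndufa4, -0.13 to 0.0633 for Cox6a1, -0.21 to 0.0262 for Cox6b1, -0.17 to 0.0433 for Cox7a2, -0.0779 to 0.20 for Cox8a and -0.16 to 0.14 for Atp5g3.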
